A study of Homo sapiens with 6 samples.

Results

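The genes described here are 44 human genes that are transcribed mainly in dividing cells, chosen by symbol among the 38606 human features of the count matrices. Of these, 21 act in S phase, when DNA is copied, and 23 act in G2 and mitosis, when chromosomes condense, attach to the spindle and separate. All 44 were found as human features, and all 44 passed the filter on low counts in the sums over whole libraries. They were followed in human nuclei of teratomas, tumours of mixed tissue that pluripotent cells form in a host animal. The H1 human embryonic stem cell line was used with an intact lncPRESS1 gene (WT), with a lncPRESS1 knockout (KO), or with the ΔATG form of the gene (DATG in sample titles), whose sequence change the labels do not spell out. All cells were mixed with matrigel and placed in the flank of immunodeficient NSG mice, so every group shares the host strain and the H1 background. There were 2 single-nucleus libraries in each of the 3 groups, and the labels do not say whether they came from separate tumours or clones, so the p-values measure only the spread between these libraries. Teratoma age and host sex are not given in the labels.

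Entry into S phase follows release of E2F transcription factors from RB family proteins, and E2F targets include the replicative helicase, nucleotide synthesis enzymes and E2F1 itself. Genes of G2 and mitosis are expressed later, and many are held down in resting cells by the DREAM complex, which reads a promoter element called the cell cycle genes homology region (CHR), often next to CCAAT boxes bound by NF-Y. In the embryonic neural tube, progenitors divide next to the ventricle, and neurons leave the cell cycle as they are born.

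S and G2/M genes differed in the letters their promoters held, and 5 promoters are shown as examples. RefSeq promoters on GRCh38.p14 were matched by symbol for 38 of the 44 genes, 19 S and 19 G2/M genes, and 250 bases before the start site were searched on both strands. AURKA, MCM4, MCM5, TPX2, TTK and UBE2C had no matched entry. The CHR letters were TTTGAA or TTCGAA, the NF-Y box was CCAAT, and the E2F letters were TTTGGCGC, TTTGCCGC, TTTCGCGC or TTTCCCGC. CHR letters stood in 10 of 19 G2/M promoters, in 3 of 19 S promoters and in 14.6% of all 27305 promoters. E2F letters stood in 12 of 19 S promoters, in 1 of 19 G2/M promoters (NUSAP1) and in 2.79% of all promoters. CCAAT stood in 16 of 19 S and 15 of 19 G2/M promoters against 33.0% of all. A match is only a run of letters, and binding was not measured.

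The sequences below hold 120 bases directly before the RefSeq start site, 5′ to 3′ on the gene's own strand, with matched letters in capitals. They were picked because they hold these matches and reach less than 20 bases into the annotated gene span. MKI67 encodes the Ki-67 protein that coats mitotic chromosomes (chr10:128126424-128126543, minus strand). KIF11 encodes the spindle motor Eg5 (chr10:92593010-92593129, plus strand). MCM6 encodes a helicase subunit (chr2:135876444-135876563, minus strand). PCNA encodes the sliding clamp of DNA polymerases (chr20:5126623-5126742, minus strand), and E2F1 the transcription factor itself (chr20:33686386-33686505, minus strand).
MKI67: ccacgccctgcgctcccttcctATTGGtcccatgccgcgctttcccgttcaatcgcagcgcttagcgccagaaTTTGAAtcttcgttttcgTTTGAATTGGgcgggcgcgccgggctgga
KIF11: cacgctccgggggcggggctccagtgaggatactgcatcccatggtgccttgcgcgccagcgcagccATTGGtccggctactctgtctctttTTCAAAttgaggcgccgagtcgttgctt
MCM6: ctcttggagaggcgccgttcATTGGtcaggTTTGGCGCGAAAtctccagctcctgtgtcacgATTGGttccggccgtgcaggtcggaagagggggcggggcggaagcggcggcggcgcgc
PCNA: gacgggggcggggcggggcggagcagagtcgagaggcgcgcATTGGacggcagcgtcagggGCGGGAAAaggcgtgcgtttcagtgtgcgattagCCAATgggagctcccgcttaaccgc
E2F1: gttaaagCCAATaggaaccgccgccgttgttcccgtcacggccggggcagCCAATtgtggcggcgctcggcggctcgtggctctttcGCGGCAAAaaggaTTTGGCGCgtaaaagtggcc
In MKI67 a CHR run overlaps a CCAAT run read on the other strand, and in MCM6 a pair of E2F runs on opposite strands overlap. MKI67 and KIF11 show CHR letters close to the start site and no E2F letters, while PCNA, MCM6 and E2F1 show E2F letters and no CHR letters in the stretch printed.

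Across the 6 libraries 49204 human nuclei were kept, 5254 to 10932 in a library, with median depths of 2520 to 3931 UMIs (unique molecular identifiers, each standing for 1 captured transcript). Among 53707 distinct barcode strings of human nuclei before doublets were removed, 322 occurred in more than 1 library. The targeted transcript LNCPRESS1 gave 7 and 2 UMIs in the WT libraries, 2 and 0 in the KO libraries and 1 and 3 in the DATG libraries, too few to check the labels. DATG replicate 2 stood apart, with 3649 barcodes mixing human and mouse UMIs against at most 1095 in any other library, and mitochondrial UMIs made up 0.512% and 0.526% in DATG against at most 0.172% elsewhere.

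A nucleus was called an S nucleus when UMIs of at least 3 different S genes were seen in it, and a G2/M nucleus when at least 3 different G2/M genes were, after each nucleus had been thinned at random to 1500 UMIs. The 9033 shallower nuclei (18.4%) were left out, leaving 40171, of which 6532 were S nuclei and 6373 were G2/M nuclei. Both calls fell on 2445 nuclei, so that 38.4% of G2/M nuclei were also S nuclei, against 12.1% of the rest. Close to the threshold, 3336 nuclei held exactly 2 G2/M genes and 1795 exactly 3, and for S genes these numbers were 4992 and 2887. G2/M nuclei had a median of 3970 UMIs before thinning against 3180 in the others. Among the 4411 removed doublets that had at least 1500 UMIs, 17.3% would have been G2/M nuclei.

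The cell classes differed far more than the 3 groups did. Clusters were built without the cell cycle genes and named "-like" from marker lists, which gave 18 classes from 27 of 35 clusters. The names were rebuilt here and are not the authors'. Means and SDs below run over the libraries with at least 20 thinned nuclei of a class. They describe the classes without a test, since clusters are made from the same nuclei.

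Pluripotent-like nuclei raised 11 of 14 markers, with POU5F1 and NANOG among them. Their G2/M share was the highest of the 17 classes ordered here, 45.9% ± 6.79 (SD, n = 4 libraries), with 42.2% ± 9.81 S nuclei. The 4 libraries gave 36.7% in WT replicate 1, 46.7% in WT replicate 2, 47.3% in KO replicate 1 and 53.0% in DATG replicate 2. They were deep nuclei (median 6343 UMIs), few (305 after thinning), and split off a mixed cluster after its cycle share had been seen. Without thinning their G2/M share was 87.5%.

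Neural progenitor-like nuclei, marked by SOX2, HES5, PAX3 and PAX7, came next, with 33.8% ± 3.91 G2/M and 37.4% ± 5.95 S nuclei (SD, n = 6 libraries). Their G2/M share was 38.9% and 28.4% (WT), 37.4% and 32.9% (KO), then 31.2% and 34.2% (DATG), so that the groups overlapped. Pluripotent-like nuclei were above them in 3 of the 4 libraries with at least 20 thinned nuclei of each, and the ranges overlapped.

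Neuron-like nuclei, marked by STMN2, ELAVL4 and DCX, had the lowest share, 3.0% ± 0.937 G2/M and 2.92% ± 1.48 S nuclei (SD, n = 6 libraries). Their median depth of 2941 UMIs was near the 3144 of the progenitor-like nuclei, and they are given beside the others as a class that should hold few dividing cells. Free RNA was not measured. Without thinning these shares were 7.53% in neuron-like and 49.5% in progenitor-like nuclei. The progenitor-like share was higher in 6 of 6 libraries, by 30.8 percentage points ± 4.28 (SD). Building the clusters with the cell cycle genes gave 31.8 points ± 4.69.

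**Figure D1:**
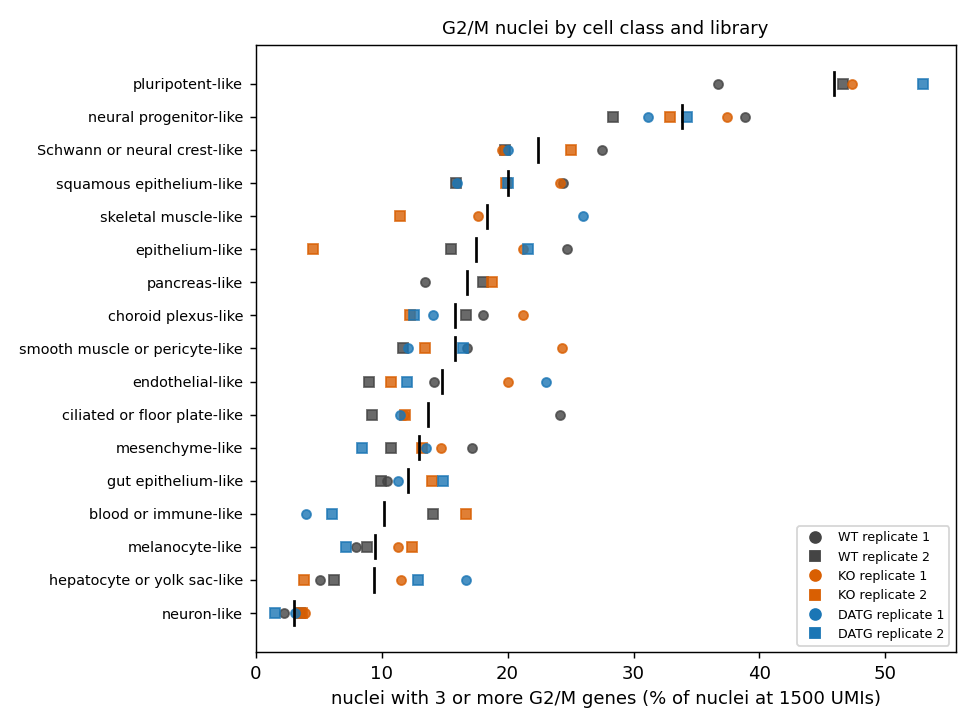
The share of G2/M nuclei in percent (x axis) is plotted for each cell class with at most 50% of its nuclei under 1500 UMIs (y axis), with 1 point for each library of at least 20 nuclei and a bar at the mean. Neuron-like nuclei lie between 1.52% and 3.90%, and neural progenitor-like nuclei between 28.4% and 38.9%.

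Between these ends lay the other classes. Schwann or neural crest-like nuclei, led by CDH19 and SOX10, stood at 22.4% ± 3.63 (n = 5), below the progenitor-like nuclei in 5 of 5 libraries with ranges that did not overlap. From there down, the ranges of each pair of neighbours in the order overlapped. Squamous epithelium-like nuclei, with KRT13 and TP63, stood at 20.1% ± 3.72 (n = 6). Skeletal muscle-like, epithelium-like and pancreas-like nuclei stood at 18.4% ± 7.31 (n = 3), 17.5% ± 7.97 (n = 5) and 16.7% ± 2.89 (n = 3).

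Choroid plexus-like nuclei (15.8% ± 3.51, n = 6), smooth muscle or pericyte-like nuclei (15.8% ± 4.70, n = 6) and endothelial-like nuclei (14.8% ± 5.56, n = 6) had overlapping ranges. Smooth muscle or pericyte-like nuclei were above choroid plexus-like nuclei in 3 of 6 libraries. Choroid plexus-like nuclei were above endothelial-like nuclei in 5 of 6. Ciliated or floor plate-like nuclei stood at 13.7% ± 5.94 (n = 5). Mesenchyme-like nuclei, the largest class with 13673 nuclei, stood at 13.0% ± 3.04 (n = 6). Lower in the order were gut epithelium-like nuclei at 12.1% ± 2.19 (n = 5), blood or immune-like nuclei at 10.2% ± 6.11 (n = 4), melanocyte-like nuclei at 9.51% ± 2.23 (n = 5) and hepatocyte or yolk sac-like nuclei at 9.38% ± 5.08 (n = 6). Each of the 16 other classes ordered here had a higher G2/M share than neuron-like nuclei in every library with at least 20 thinned nuclei of that class. Erythroid-like nuclei gave 47.5% ± 8.29 (n = 4) but were not ordered, because 78.8% of them fell under 1500 UMIs and their clusters also raised 9 and 10 of the 18 neural progenitor markers.

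Within the neuron-like class the clusters differed. Cluster 17, led by NEUROD4, NHLH1 and INSM1, genes switched on in newly formed neurons, had 5.14% ± 1.56 G2/M nuclei. Cluster 14, led by SLC5A7 and SCN2A, genes of mature transmission and excitability, had 1.31% ± 0.341 (SD, n = 6 libraries each). The share was higher in cluster 17 than in cluster 14 in all 6 libraries, for example 7.36% against 1.17% in KO replicate 2. In DATG replicate 2 it was 3.08% against 0.775%, which rests on 2 and 1 G2/M nuclei. Cluster 26 of the same class, led by SCN10A, had the highest share, 7.27% ± 1.74 (SD, n = 4 libraries).

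Unnamed clusters lay at both ends of the range. Cluster 0, led by RHEX and NR2E1 and raising 8 of 18 progenitor markers, had 29.7% ± 2.47 (n = 5). Cluster 7, led by LINC01965 and HES6, had 23.3% ± 7.24 (n = 6) and was the deepest, at a median of 8978 UMIs. Cluster 6, led by SFTA3 and HSPA1A, had 30.2% ± 8.11 (n = 6), with 61.2% of its nuclei left out as shallow. Cluster 11, led by SCN7A and TBX5 and raising 6 of 16 mesenchyme markers, had 25.3% ± 6.43 (n = 6), above the 13.0% of the mesenchyme-like class. Clusters 16 and 24 raised 17 and 15 of 18 neuron markers and were led by SLC6A5 and by DLX genes. They had 1.36% ± 1.07 and 1.64% ± 0.441 (n = 4 each), near the level of cluster 14.

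Clusters gave unequal parts of the G2/M nuclei. Mesenchyme-like cluster 4, led by TBX15 and PRRX1, held 14.4% of all G2/M nuclei and 15.6% of the 40171 thinned nuclei. Progenitor-like cluster 19 held 13.1% of G2/M nuclei but 5.95% of thinned nuclei, and cluster 0 held 10.8% against 5.67%. Neuron-like cluster 14 held 0.612% of G2/M nuclei against 6.61% of thinned nuclei. The unnamed clusters together held 29.3% of G2/M nuclei and 25.1% of thinned nuclei.

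Levels are given as CPM, the UMIs of a gene per 1000000 human UMIs of the same nuclei. All 44 genes were higher in neural progenitor-like than in neuron-like nuclei in 6 of 6 libraries, whereas 33.4% of 14344 genes with a mean of at least 5 CPM did so. The ratio of means had a median of 4.55 for S genes and 6.13 for G2/M genes, against 1.16 over all these genes. It ran from 2.08 for MCM7 to 9.55 for BUB1B.

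Among replication genes, RRM2, the small subunit of the enzyme that makes deoxynucleotides, stood at 280, 158, 239, 185, 178 and 182 CPM in progenitor-like nuclei, in the order WT, KO and DATG with replicate 1 first. In neuron-like nuclei it stood at 39.3, 25.9, 19.6, 20.7, 16.5 and 12.7. No progenitor-like value came near a neuron-like one, and the ratio was 9.07.
MCM7, a subunit of the replicative helicase, stood at 67.2, 50.2, 58.7, 44.8, 52.7 and 59.0 in progenitor-like nuclei and at 35.5, 29.8, 30.6, 24.7, 29.5 and 10.1 in neuron-like nuclei. Its ranges were also apart, with the smallest ratio of all 44 genes. GINS2, a helicase cofactor, and RRM1, the large subunit of the same enzyme as RRM2, followed with ratios of 2.53 and 2.54. BRIP1, a helicase of DNA repair, and DTL, which directs destruction of the licensing factor CDT1, had ratios of 8.61 and 7.53.

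Among the G2/M genes, BUB1B, a kinase of the spindle checkpoint, stood at 119.7, 79.6, 106.2, 85.9, 68.9 and 108.5 CPM in progenitor-like nuclei and at 13.3, 11.6, 10.1, 12.4, 8.43 and 3.803 in neuron-like nuclei. MKI67 stood at 100.5, 69.8, 96.6, 106.4, 116.9 and 95.8 against 20.9, 12.7, 17.1, 18.4, 20.3 and 11.4. TOP2A, which untangles DNA, stood at 175, 142, 234, 231, 220.0 and 151 against 36.8, 33.1, 39.4, 35.05, 35.2 and 30.4. The ratios of MKI67 and TOP2A were 5.81 and 5.49, and neither gene's ranges overlapped. CENPE, a motor that carries chromosomes to the spindle middle, and KIF14, a motor of cell separation, had ratios of 8.54 and 7.53. KIF20B, CCNB2 and PLK1 had the smallest of the G2/M ratios, 3.65, 3.86 and 3.99.

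Over the 17 classes ordered above, the highest mean level was in pluripotent-like nuclei for 14 of 21 S genes and 8 of 23 G2/M genes, and in progenitor-like nuclei for 6 and 15. TYMS, the thymidylate synthase, was highest in gut epithelium-like nuclei at 34.1 ± 7.85 CPM (SD, n = 5), within its spread of the 33.3 ± 9.65 in pluripotent-like nuclei (n = 2). The lowest mean was in neuron-like nuclei for 14 S genes and 20 G2/M genes. When the erythroid-like class was counted as well, it was the highest for 17 G2/M genes and 7 S genes. Pluripotent-like nuclei were then highest for 4 G2/M and 11 S genes, and progenitor-like nuclei for 2 and 3. Pluripotent-like means rest on the 2 libraries with at least 50 such nuclei. There CDC6, a loader of the helicase, averaged 34.6 CPM against 14.7 in progenitor-like nuclei, and BUB1 averaged 122.4 against 63.3, while MKI67 averaged 46.3 against 97.7.

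**Figure D2:**
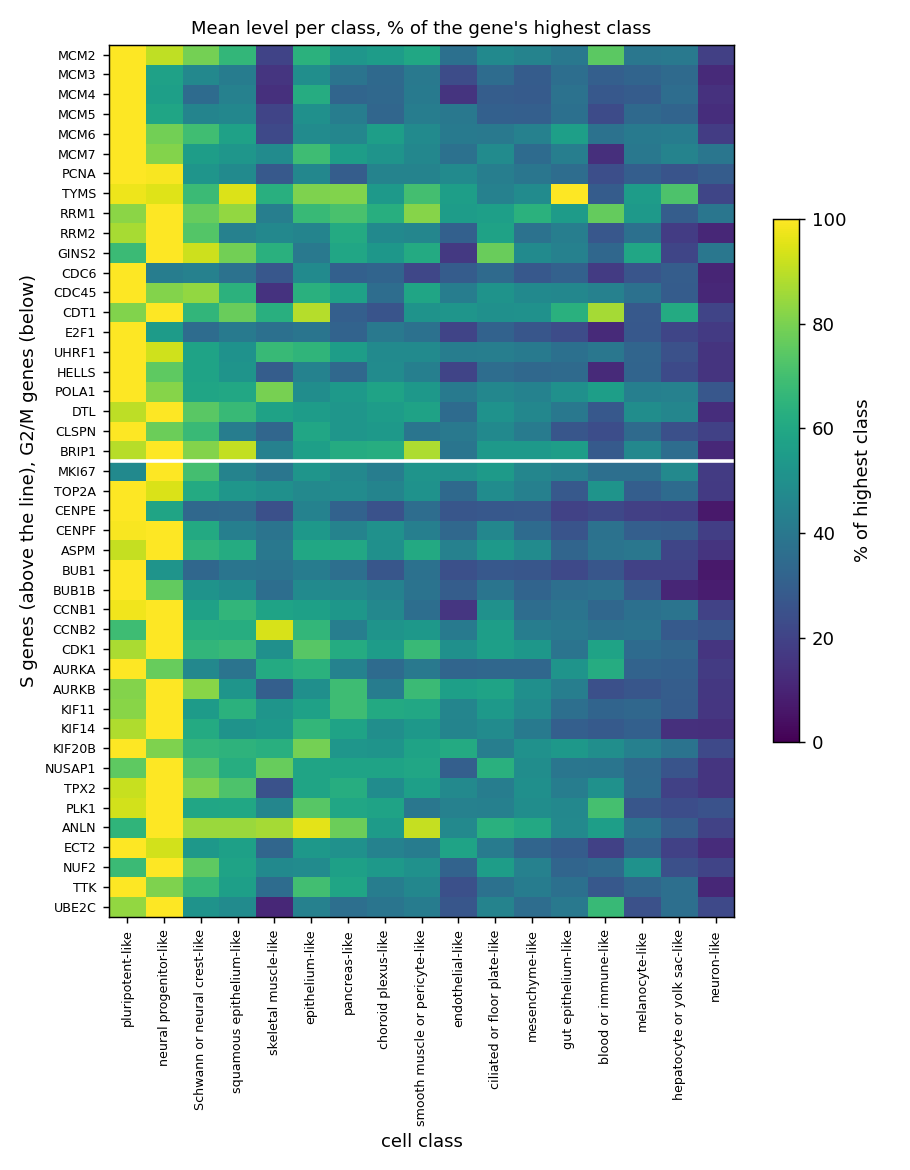
Each row is 1 of the 44 genes and each column 1 of 17 cell classes. The colour gives the mean level as a percentage of that gene's highest class among these 17. Erythroid-like nuclei are not shown, although they were highest for 17 G2/M and 7 S genes when counted. Apart from TYMS, each gene's brightest cell falls in the pluripotent-like or the neural progenitor-like column, and 34 of the 44 genes have their darkest cell in the neuron-like column.

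Other genes of the pathway, taken from lists that share no gene with the 44, followed the same contrast. Of 54 other S genes, 54 were higher in progenitor-like nuclei in 6 of 6 libraries, and of 68 other G2/M genes 66 were, the exceptions being CDC25B and SPAG5, higher in 5 of 6. Of 25 regulators of G1, 19 were higher, including CCND1 (158 against 30.5 CPM) and CDK6 (331 against 113), the D-type cyclin and kinase that act on RB. LIN37 and MYC were higher in neuron-like nuclei in 6 of 6. None of 12 inhibitors of cyclin-dependent kinases and cell cycle exit genes was higher in progenitor-like nuclei in all 6 libraries. This list was mixed, with a median ratio of 0.896 for progenitor-like over neuron-like nuclei. CDKN1B (26.35 against 18.28 CPM) and TOB1 (11.15 against 6.892) were higher in progenitor-like nuclei in 5 of 6 libraries. CDKN1C (p57) was higher in neuron-like nuclei in 6 of 6 libraries, at 82.9 ± 10.2 against 39.1 ± 11.0 CPM (SD, n = 6), and so was CDKN2D (p19), at 17.7 ± 5.64 against 7.59 ± 3.95.

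Over 77 class-by-library sums, the 10 genes outside the set whose log2 levels were most like the summed G2/M genes were SMC4, ARHGAP11A, SGO2, KIF2C, NDC80, HMMR, SGO1, CDCA8, BIRC5 and CKAP2, with Pearson correlations from 0.920 down to 0.855 among 15324 genes. The sums share libraries and depth, so these values are a description. All 10 belong to the list of other G2/M genes.

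The groups were then compared for the level of the set in all human nuclei, where fewer dividing cells and less RNA per dividing cell cannot be told apart. The WT libraries gave 1336 and 846 CPM for the summed S genes, the KO libraries 1090 and 931, and the DATG libraries 823 and 888. Summed G2/M genes stood at 1354 and 1106 (WT), 1404 and 1243 (KO), then 1036 and 1041 (DATG). WT spanned most of the range, so that KO lay within or near it, and both DATG libraries lay below both KO libraries. WT replicate 1 had the highest S level and the highest ratio of S to G2/M UMIs, 0.986 against 0.749 to 0.853 in the other libraries.

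The shares of nuclei ordered the libraries much as the sums did. G2/M nuclei made up 18.9% (95% exact Clopper-Pearson interval 17.7 to 20.1) and 14.2% (13.5 to 15.0) (WT), 19.4% (18.5 to 20.3) and 16.3% (15.4 to 17.2) (KO), then 13.1% (12.4 to 13.8) and 14.7% (13.7 to 15.8) (DATG). Those intervals cover counting error only. Group means were 16.6% ± 3.30 for WT, 17.8% ± 2.20 for KO and 13.9% ± 1.12 for DATG (SD, n = 2 each). S nuclei made up 18.8% ± 7.45, 17.4% ± 2.72 and 14.5% ± 1.63. Without thinning, the G2/M means were 28.3%, 28.7% and 20.7%. With 2 libraries a group, no permutation test could reach the 0.05 threshold, and the WT libraries alone differed by more than any pair of group means.

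**Figure D3:**
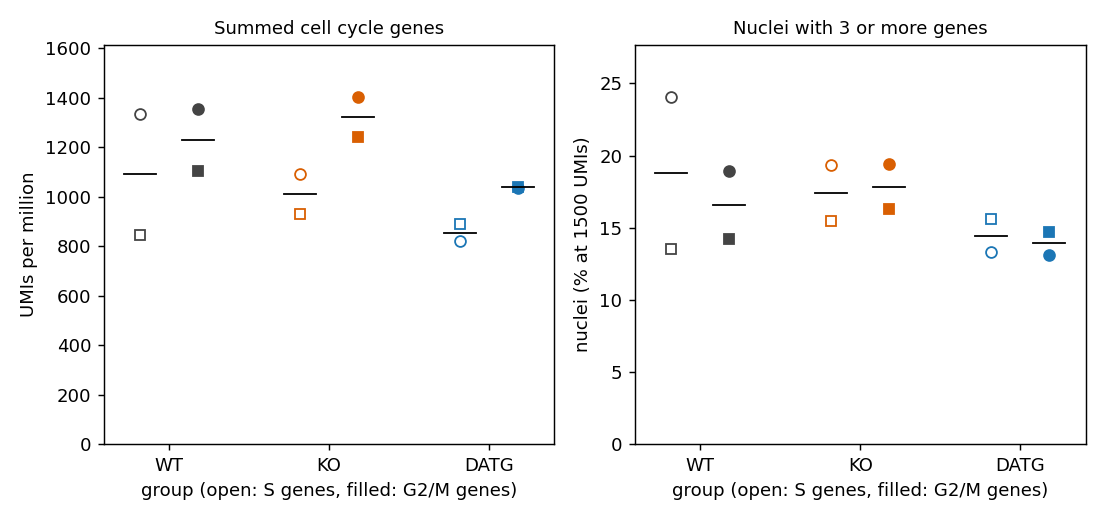
The left panel plots summed S genes (open) and G2/M genes (filled) in CPM and the right panel the percentages of S and G2/M nuclei, by group on the x axis, with circles for replicate 1, squares for replicate 2 and bars at the group means. Both DATG libraries lie below both KO libraries for G2/M genes in both panels, and the WT libraries lie far apart.

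The tissue mix also differed between the libraries. Neural progenitor-like nuclei made up 8.16% and 2.34% of thinned nuclei (WT), 15.2% and 6.67% (KO), then 5.79% and 5.37% (DATG). When each library's own G2/M share per cluster was applied to the pooled cluster mix, the group means became 16.1% ± 2.05 for WT, 16.2% ± 1.28 for KO and 14.6% ± 0.265 for DATG. Where a library had fewer than 5 thinned nuclei of a cluster the pooled share was used, which by itself draws libraries together. When the pooled share per cluster was applied to each library's own mix, the group means were 16.2% ± 1.12, 17.3% ± 1.05 and 14.1% ± 0.118. The gap of 3.92 percentage points between KO and DATG was thus smaller once the mix was held fixed, with no test of either value. The part of the mix in the values of single genes was not tested.

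Across whole libraries, edgeR's quasi-likelihood test called none of the 44 genes in KO against WT, DATG against WT or DATG against KO, at a Benjamini-Hochberg adjusted p under 0.05. It also called 0 of 26551 genes (0%) in each comparison, so the absence of calls is no result about cell cycle genes. At an unadjusted p under 0.05 stood 1233, 794 and 1613 of all genes, and 0, 0 and 1 of the 44. DESeq2 called 146 genes (0.550%), 86 genes (0.324%) and 77 genes (0.290%), none of them among the 44. With only the 4 compared libraries, edgeR called 503 genes in KO against WT (1.94%) and 0 in the other pairs (0%), again none of the 44.

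In KO against WT the direction of the set depended on which WT library entered. With all libraries the fitted log2 fold change was above 0 for 3 of 21 S genes (median -0.16) and for 20 of 23 G2/M genes (median 0.13), against a median of 0.01 over all genes. The standard errors had medians of 0.35 and 0.25, larger than these medians. Without WT replicate 1, 20 of 21 S genes were above 0 (median 0.22), and without WT replicate 2, 11 of 23 G2/M genes were (median -0.0050). Both KO libraries were above both WT libraries for 5 G2/M genes (BUB1, CCNB2, TPX2, ECT2 and NUF2) and 1 S gene (PCNA), where 22.0% of 20978 genes were. They were below for TYMS alone, where 22.8% were.

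In DATG against WT, 2 of 21 S genes (median -0.17) and 7 of 23 G2/M genes (median -0.08) were above 0, against a median of 0.03 over all genes. These directions turned without WT replicate 1, when 17 of 21 S genes (median 0.17) and 12 of 23 G2/M genes (median 0.03) were above 0. Without WT replicate 2 the medians were -0.48 and -0.15. Both DATG libraries were above both WT libraries for PCNA alone, where 12.0% of genes were, and below for 5 genes, where 10.2% were. These were MCM7, BUB1, CCNB1, CDK1 and NUF2. The lowest unadjusted p among the 44 genes was 0.054, for PCNA in the edgeR fit.

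In DATG against KO, 10 of 21 S genes and 5 of 23 G2/M genes were above 0, with medians of -0.0048 and -0.24, against 0.03 over all genes. Without DATG replicate 1 the G2/M median was -0.11, with 7 of 23 above 0. Both DATG libraries were below both KO libraries for 11 G2/M and 5 S genes, where 19.9% of genes were, and above for 2 S genes, where 22.1% were. NUF2, a kinetochore protein, had the lowest fitted log2 fold change among G2/M genes, with 50.6 and 51.4 scaled CPM (WT), 70.5 and 57.0 (KO), then 47.8 and 38.9 (DATG). Its log2 fold change from KO to DATG was -0.56 ± 0.22 (SE), with an edgeR unadjusted p of 0.046 and adjusted p of 0.676.

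PCNA was highest in DATG. It stood at 17.2 and 19.8 scaled CPM (WT), 21.5 and 20 (KO), then 26.1 and 27.8 (DATG), so that the 3 groups did not overlap. Over all genes, 22.0% were higher in both KO than both WT libraries, 12.0% in DATG against WT and 22.1% in DATG against KO. How many met all 3 was not counted. The log2 fold change of PCNA was 0.55 ± 0.23 (SE) in DATG against WT, with an edgeR adjusted p of 1.00. It was 0.38 ± 0.23 against KO, with an edgeR adjusted p of 0.676.

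GINS2 differed inside the DATG group. It stood at 16.6 and 14.7 (WT), 20.9 and 15.6 (KO), then 17.9 and 4.14 (DATG), the last value from the library that stood apart above. When DATG replicate 1 was left out, the lone DATG replicate 2 gave -1.96 on the log2 scale against WT (edgeR adjusted p = 0.013) and -2.15 against KO (adjusted p = 0.0036). In those fits 2359 and 6631 of all genes were called, and no other member was. Whether the library or the genotype set this value was not tested.

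**Figure D4:**
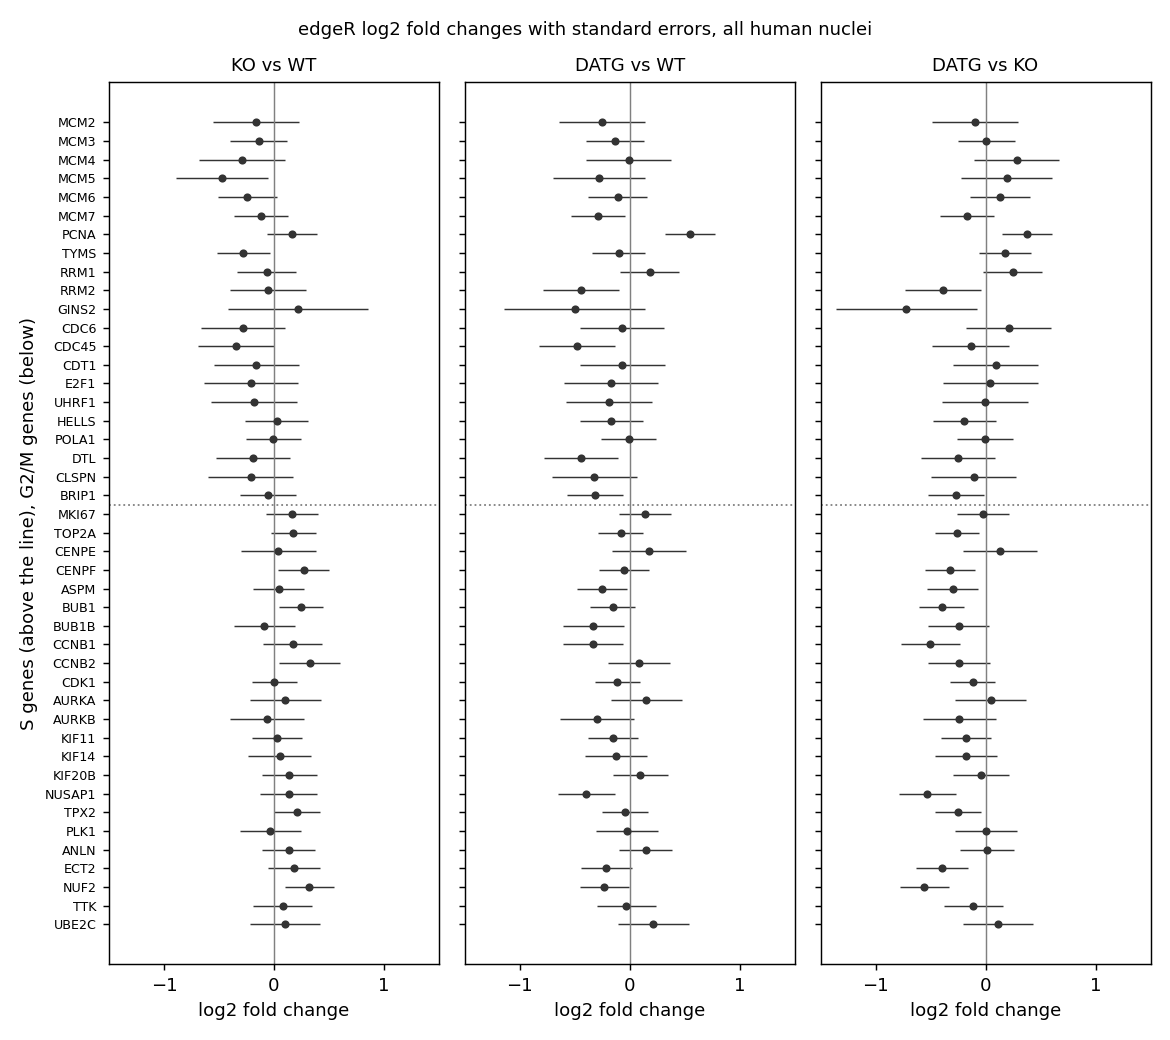
The 44 genes (y axis) are plotted with their edgeR log2 fold change and standard error (x axis) in KO against WT, DATG against WT and DATG against KO. Most error bars cross 0, and 20 of 23 G2/M genes lie above 0 in KO against WT while 5 of 23 do in DATG against KO.

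The 4 further gene lists gave no call in any whole-library comparison with edgeR. In DATG against WT, 12 of 54 other S genes and 18 of 68 other G2/M genes were above 0, with medians of -0.24 and -0.10. Without WT replicate 1 these became 39 of 54 (median 0.12) and 48 of 68 (median 0.15). Of the 12 inhibitors and exit genes, 11 were above 0 in DATG against WT (median 0.54), and without DATG replicate 2 this was 8 of 12 (median 0.20). CDKN1B (p27) stood at 0.69 ± 0.27 (SE, edgeR unadjusted p = 0.043, adjusted p = 1.00) and TOB1, an antiproliferative protein, at 0.99 ± 0.45. Cyclin D2 (CCND2), a G1 regulator, stood at 1.20 ± 0.41 in DATG against KO (edgeR unadjusted p = 0.026, adjusted p = 0.676). The DATG libraries lay far apart for CCND2, at a mean of 267 ± 143 scaled CPM against 116 ± 6.74 in KO (SD). TOB1 was also uneven in DATG, at 12.75 ± 6.18 scaled CPM against 6.425 ± 1.79 in WT (SD).

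Within classes, 5 had at least 50 nuclei in every library and were tested: neural progenitor-like, neuron-like, choroid plexus-like, smooth muscle or pericyte-like and mesenchyme-like nuclei. In these 15 fits edgeR called none of the genes in the set and 0 genes in all (0% in each). At an unadjusted p under 0.05 stood 14 of 645 tests of set genes and 221 to 1021 of all genes in a fit. DESeq2 called 0 to 96 genes in a fit and no gene of the set. Without the filter on low counts edgeR called at least 1 gene in 15 of 15 fits, at most 99. It did so in 13 of 15 without DATG replicate 1, at most 1905, and in 10 of 15 without DATG replicate 2, at most 389.

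**Figure D5:**
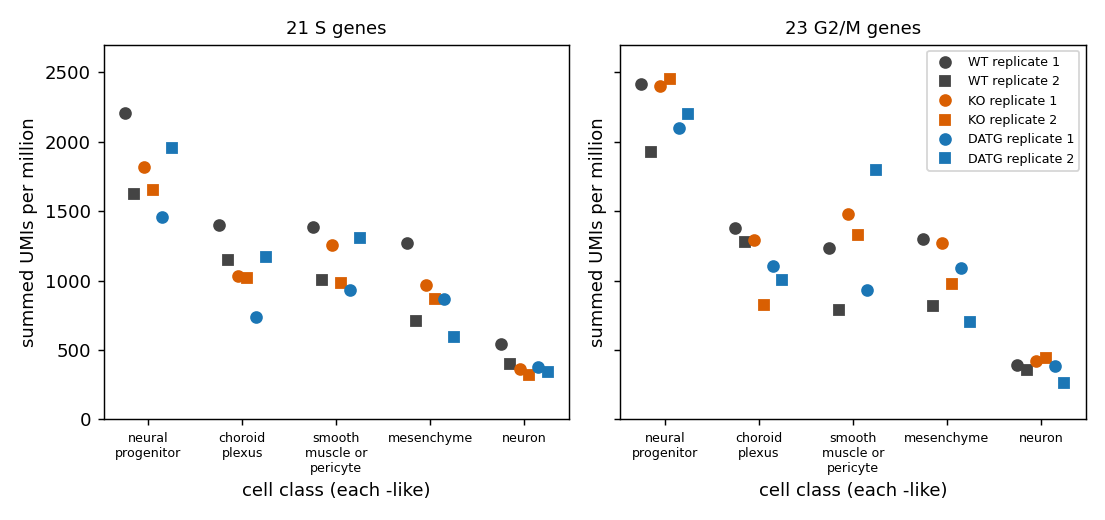
Summed S genes (left) and G2/M genes (right) in CPM (y axis) are plotted for the 5 tested cell classes (x axis), with 1 point per library coloured by group. Neural progenitor-like points lie highest and neuron-like points lowest, and within a class the groups mostly overlap.

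In neural progenitor-like nuclei the mix of clusters differed between libraries. Cluster 30, led by FABP7, held 46 and 13 nuclei (WT), 227 and 68 (KO), then 168 and 2 (DATG), and the rest were in cluster 19. In that class UBE2C, a ubiquitin-conjugating enzyme of the anaphase-promoting complex, stood at 17.6 and 21.3 scaled CPM (WT), 34.2 and 36.6 (KO), then 52.0 and 50.6 (DATG). The 3 groups did not overlap in the class as a whole. Both KO libraries were above both WT libraries for 7 of 23 G2/M genes there and below for 0. Both DATG libraries were above WT for 4 and below for 3, and above KO for 1 and below for 5. How many of all genes did so in this class was not counted. The log2 fold change of UBE2C was 1.43 ± 0.29 (SE) in DATG against WT, with an edgeR unadjusted p of 0.0010 and adjusted p of 0.848. UBE2C stood at 71.7 CPM in cluster 30 against 24.6 in cluster 19. Within cluster 19 alone, a comparison added after the data were seen, it stood at 13.5 and 22.1 CPM (WT), 27.1 and 23.7 (KO), then 18.8 and 47.3 (DATG). There DATG overlapped both other groups. Within cluster 30 alone UBE2C stood at 36.1 and 0 CPM (WT), 64.3 and 86.9 (KO), then 91.1 and 105.6 (DATG), without overlap. Those values rest on 15 and 0 UMIs (WT), 61 and 36 (KO), then 85 and 2 (DATG). The part of the mix in the UBE2C values was not tested. PCNA in the whole class stood at 37.0 and 25.0 (WT), 46.2 and 38.9 (KO), then 58.8 and 79.2 (DATG), with 1.10 ± 0.30 in DATG against WT (edgeR unadjusted p = 0.0065, adjusted p = 0.995). PCNA within cluster 19 stood at 27.6 and 24.7 CPM (WT), 30.3 and 26.5 (KO), then 35.9 and 74.2 (DATG), the DATG libraries being above the other 4. Within cluster 30 PCNA stood at 79.5 and 21.2 CPM (WT), 109.6 and 86.9 (KO), then 84.6 and 158.4 (DATG), which overlapped. Without DATG replicate 2, UBE2C was called in DATG against WT (1.46 on the log2 scale, edgeR adjusted p = 0.025), and without DATG replicate 1 NUSAP1, a spindle protein, was called in DATG against KO (-1.11, adjusted p = 0.027). In those edgeR fits 389 of 16530 and 1043 of 16486 genes were called in all.

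In neuron-like nuclei 2 of 20 S genes and 18 of 23 G2/M genes tested were above 0 in KO against WT, with medians of -0.55 and 0.22, against 0.00 over all genes. Without WT replicate 1 the S median was -0.26, without WT replicate 2 it was -0.92, and without KO replicate 2 the G2/M median was 0.13. DTL stood at 25.2 and 17.1 scaled CPM (WT), 10.4 and 6.8 (KO), then 11.2 and 8.13 (DATG). BRIP1 stood at 57.2 and 38.6 (WT), 30.1 and 23.8 (KO), then 27.8 and 29.8 (DATG). Both genes were highest in the WT libraries of the class as a whole, with edgeR adjusted p-values of 1.00 in KO against WT. Both KO libraries were below both WT libraries for 12 of the 20 S genes, and both DATG libraries for 9. None was above in either comparison, and the share over all genes was not counted. Neuron-like cluster 26, led by SCN10A, held 8 and 145 nuclei (WT), 202 and 38 (KO), then 183 and 3 (DATG). In cluster 14 alone BRIP1 was again highest in both WT libraries, at 51.7 and 27.9 CPM against 12.7 to 26.4 in the other 4, while DTL at 10.2 in WT replicate 2 was under its 10.5 in DATG replicate 1. In cluster 17 alone DTL was highest in both WT libraries, and BRIP1 at 38.7 in WT replicate 2 was under its 49.0 in KO replicate 1.

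In smooth muscle or pericyte-like nuclei 21 of 22 G2/M genes tested were above 0 in KO against WT (median 0.48, all genes 0.00) and 6 of 19 S genes were (median -0.05). The G2/M median was 0.73 without WT replicate 1 and 0.23 without WT replicate 2, and without WT replicate 1 16 of 20 S genes were above 0 (median 0.24), against 5 of 20 without WT replicate 2 (median -0.43). MKI67 stood at 39.3 and 27.2 scaled CPM (WT), 80.6 and 55.9 (KO), then 41.6 and 69.2 (DATG), all DATG and KO values being above WT. Both KO libraries were above both WT libraries for 11 of the 22 G2/M genes, and both DATG libraries for 5. None was below in either comparison, and the share over all genes was not counted. In choroid plexus-like nuclei the lean was the other way, with 3 of 23 G2/M genes above 0 (median -0.42, all genes -0.01). Without KO replicate 2 this was 10 of 23 (median -0.17), and without KO replicate 1 it was 1 of 23 (median -0.72). BUB1B there stood at 75.6 and 74.0 (WT), 41.2 and 34.7 (KO), then 53.3 and 61.5 (DATG). No gene passed the edgeR threshold in either class, and the difference between both classes was not tested.

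Mesenchyme-like nuclei of the groups came from different clusters, so their values are not the same cells compared. Cluster 1 held 940 and 3173 nuclei in WT but 38 and 272 in KO, and cluster 4 held 572 and 449 in WT but 1956 and 1042 in KO. In this class 5 of 21 S genes and 16 of 23 G2/M genes were above 0 in KO against WT, with medians of -0.18 and 0.06. These directions turned with 1 library: without WT replicate 1, 17 of 21 S genes (median 0.23) and 22 of 23 G2/M genes (median 0.37) were above 0. Without WT replicate 2, 1 of 21 and 9 of 23 were (medians -0.44 and -0.09). Without KO replicate 1, 8 of 23 G2/M genes were (median -0.10), and without KO replicate 2 the G2/M median was 0.20.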

How the data were processed

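Nuclei of teratoma, 6 libraries in all, were sequenced with 10x Genomics chemistry. Cell Ranger 8.0.1 and the builds GRCh38 and GRCm38 come from the submitters' processing notes, and the headers of the matrices name 8.0.0, per the file headers. The authors deposited UMI counts per gene and barcode. Barcodes with at least 500 UMIs, 300 genes and 90% human UMIs were kept, and doublets called with scrublet (scanpy 1.11.5) removed. Totals were 22003341 to 35564478 human UMIs per library. Counts were scaled to 10000 per nucleus, 2000 variable genes without cell cycle genes gave 30 components, and Leiden clusters (resolution 1) were named from at least 3 raised markers. Clusters whose markers were mixed were split once (resolution 0.3), and clusters with mixed markers that could not be split were left unnamed. Both steps, and leaving erythroid-like nuclei out of the order, were chosen after cycle shares by cluster had been seen, and an undivided version was not run. The ranking of candidate names (markers among leading genes first) was also changed after a first naming.

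Sums per library were tested with edgeR 4.0.16 (TMM, robust quasi-likelihood, Benjamini-Hochberg) over all 6 libraries, with DESeq2 1.42.0 as an alternative. Scaled CPM values use TMM factors, and plain CPM values do not. The code was tested on simulated data. The genes, lists and marker lists were chosen with earlier results of these data known. The text may name all 44 genes, the 3 genes of each further list with the smallest p in each whole-library comparison, those past the threshold, and the 10 most alike genes. Genes named for their class contrast or from the marker lists were chosen after their values were seen.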

Additional observations from a re-analysis of the deposited data

Results flagged for a closer look

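Mouse host nuclei lie outside the comparisons above. Their summed S genes, matched by symbol, gave 327 and 302 CPM (WT), 416 and 248 (KO), then 564 and 335 (DATG). The DATG mean of 450 came from 2 libraries that were both above both WT libraries, which drew attention to it, while 1 of the KO libraries lay between them. The counts behind it were 200 and 718 S UMIs from 87 and 547 mouse nuclei, against 101 and 139 nuclei in WT, and no test was made. Their summed G2/M genes did not show this order, at 884 and 276 CPM (WT), 942 and 304 (KO), then 776 and 455 (DATG).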

How the results depend on the processing

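With 2 libraries a group, calls in either direction depended on which libraries entered. No gene of the set was called in whole libraries under another scaling (DESeq2's size-factor method in edgeR), without the filter on low counts, with nuclei of at least 1000 UMIs, with called doublets kept, with DESeq2 or with the 4 compared libraries alone. Leaving out 1 library gave 0 to 0 calls in the set for KO against WT, and 0 to 1 for DATG against WT and for DATG against KO, the 1 being GINS2 without DATG replicate 1. Among all genes it gave 0 to 683, 0 to 2359 and 0 to 6631 calls, where the lone library is assumed to vary like the others. DESeq2 gave 146, 86 and 77 calls among all genes, and the 4 compared libraries alone gave 503 in KO against WT and 0 in the other pairs. The cause was not tested. Within neural progenitor-like nuclei the range was 0 to 1 in DATG against WT and in DATG against KO. Within classes at least 1 gene of any kind was called in 61 of 165 fits under alternatives, at most 1905 (mesenchyme-like, DATG against KO without DATG replicate 1). Of 1452 fold changes of set genes under alternatives, 117 had the other sign than reported, and 2 were past the threshold.

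A replicate block gave 0 calls in every comparison, whole or within a class. The pairing by number was not borne out: correlations of deviations were 0.09 (WT and KO), -0.15 (WT and DATG) and 0.34 (KO and DATG).

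The KO minus WT share of S nuclei, -1.40 percentage points, ran from -6.67 without WT replicate 2 to 3.87 without WT replicate 1, and that of G2/M nuclei, 1.28, from -1.06 to 3.61. DATG minus WT ran from -9.62 to 0.92 for S nuclei and from -4.98 to -0.31 for G2/M nuclei. DATG minus KO ran from -4.87 to -1.03 and from -5.48 to -2.37. Without thinning, DATG minus WT became -10.2 for S nuclei and -7.65 for G2/M nuclei, and DATG minus KO -8.67 and -7.98. Requiring only 2 genes gave -5.83 for G2/M nuclei in DATG minus KO. Alternatives chosen after seeing the data (dropping deep nuclei, DATG replicate 2 or WT replicate 1, or using single clusters) kept the progenitor-like minus neuron-like gap between 27.8 and 32.5 points.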
